A study of Mus musculus with 6 samples.

Results

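The levels of 10 regulators and features of Aire-expressing medullary thymic epithelium were followed across thymic tuft cell libraries: Aire, Fezf2, Tnfrsf11a, Cd40, Cd80, Cd86, Ubd, Hdc, Fgf21 and Trpm1. The set was chosen by gene name, and all 10 genes were found among the 55471 genes of the expression table and among the 19416 genes tested. RNA was sequenced from mouse thymic tuft cells, which resemble the chemosensory tuft cells of gut and airway and had been sorted on the surface protein L1CAM. The samples were 3 from mice positive for Foxn1-Cre and 3 from Foxn1-Cre-negative mice, and both groups carried floxed alleles of Ikzf1, the gene of the zinc finger transcription factor Ikaros. The labels give the genotypes as KO and WT, and give no age, sex or strain. Foxn1-Cre acts in thymic epithelial cells in general, so the recombinase is not limited to tuft cells. The table's columns are named Ko1 to Ko3 and Het1 to Het3; Ko was read as the Cre-positive group and Het, by elimination, as the Cre-negative group.

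Medullary epithelial cells (mTEC) show the body's own tissue antigens to developing T cells. Maturing mTEC receive signals through the receptors RANK and CD40, which act on NF-kB transcription factors, and then switch on Aire together with MHC class II and the costimulatory ligands CD80 and CD86. Aire and Fezf2 drive the expression of tissue-restricted antigens. Tuft cells are among the mimetic cells, medullary epithelial cells that take on programs of peripheral tissues, and many of these cells have passed through an Aire-expressing stage. The genes described here were chosen as regulators and features of that earlier stage, not as markers of the tuft cell itself.

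Library totals were 12238428 to 17140843 reads in the libraries labelled Ko and 12429260 to 31435787 reads in those labelled Het. The targeted gene went against the Ko label. Ikzf1 had 1572, 1463 and 1717 normalized counts in Ko1, Ko2 and Ko3, against 301, 187 and 273 in Het1, Het2 and Het3 (limma log2 fold change 2.66 ± 0.30, SE; adjusted p = 0.0105, and 0.0621 without Het3). The count covers the whole gene and does not show whether a deleted part was missing, so directions below are between libraries as labelled. The sorted cells carried tuft cell RNA in every library: the summed level of 10 tuft cell markers, Pou2f3, Trpm5, Dclk1 and L1cam among them, was 95744, 95409 and 113481 normalized counts in Ko1, Ko2 and Ko3 and 109371, 76160 and 65320 in Het1, Het2 and Het3. Whether the libraries stem from different mice is not stated in the labels, and the p-values therefore reflect only the spread among these libraries, which may be technical.

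The promoters of 5 of the genes are shown because these genes either had the smallest p-values for genotype (Ubd, Hdc and Cd80) or are the transcription regulators of the stage (Aire and Fezf2). Sequences are from RefSeq on GRCm38.p6, not on the GRCm39 build that the authors used, and run 5′ to 3′ on the gene's strand, from 250 bases before to 50 bases after the transcript start. Capitals mark a kappaB-like motif (GGGA, any 4 bases, then CC), an Ikaros core motif (TGGGAA) and E-boxes (CANNTG), searched on both strands.
Ubd, chr17:37193642-37193941, plus strand: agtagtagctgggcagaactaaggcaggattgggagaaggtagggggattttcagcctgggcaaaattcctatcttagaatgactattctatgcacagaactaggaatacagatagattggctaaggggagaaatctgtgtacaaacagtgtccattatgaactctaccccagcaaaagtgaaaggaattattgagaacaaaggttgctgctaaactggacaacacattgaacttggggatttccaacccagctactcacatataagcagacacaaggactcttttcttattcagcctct
Hdc, chr2:126618629-126618928, minus strand: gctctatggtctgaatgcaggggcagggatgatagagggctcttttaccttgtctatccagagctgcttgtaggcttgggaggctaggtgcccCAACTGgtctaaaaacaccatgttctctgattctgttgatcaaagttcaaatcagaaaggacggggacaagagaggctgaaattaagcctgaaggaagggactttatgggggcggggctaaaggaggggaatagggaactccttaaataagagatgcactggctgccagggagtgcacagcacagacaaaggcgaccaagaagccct
Cd80, chr16:38458683-38458982, plus strand: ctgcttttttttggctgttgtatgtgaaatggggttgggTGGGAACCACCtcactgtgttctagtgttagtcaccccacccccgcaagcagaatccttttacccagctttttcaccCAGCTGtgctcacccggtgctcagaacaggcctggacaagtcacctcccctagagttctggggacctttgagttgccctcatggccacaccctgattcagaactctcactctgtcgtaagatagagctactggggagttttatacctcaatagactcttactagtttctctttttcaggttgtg
Aire, chr10:78043561-78043860, minus strand: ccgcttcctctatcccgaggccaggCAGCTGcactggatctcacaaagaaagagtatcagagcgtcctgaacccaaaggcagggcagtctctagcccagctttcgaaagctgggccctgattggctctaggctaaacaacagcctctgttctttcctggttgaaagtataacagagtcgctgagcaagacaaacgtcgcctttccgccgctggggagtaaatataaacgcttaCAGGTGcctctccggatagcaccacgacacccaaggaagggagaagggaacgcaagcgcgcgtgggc
Fezf2, chr14:12345816-12346115, minus strand: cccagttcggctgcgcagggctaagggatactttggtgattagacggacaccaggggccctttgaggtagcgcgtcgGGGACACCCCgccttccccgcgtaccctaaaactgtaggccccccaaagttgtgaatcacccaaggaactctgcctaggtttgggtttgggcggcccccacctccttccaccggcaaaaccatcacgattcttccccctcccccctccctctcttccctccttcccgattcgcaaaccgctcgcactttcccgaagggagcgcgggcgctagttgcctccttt

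In the Cd80 promoter the Ikaros core motif overlapped the kappaB-like motif and an E-box lay further downstream, and the Fezf2 promoter held a kappaB-like motif alone. The Aire promoter held 2 E-boxes, the Hdc promoter 1 E-box, and the Ubd promoter none of the 3 motifs as spelled here. The Ubd window does hold the run ggggatttcc, which the kappaB-like pattern does not cover. The lack of a match therefore does not show that a kappaB site is absent. The table held 9 promoters for 8 of the 10 genes, with 2 entries for Trpm1. Of these 9, 2 held the kappaB-like motif, 1 the Ikaros core motif and 7 an E-box, while over all 32851 promoters of the same length the shares were 20.7%, 25.6% and 72.3%. A match is a run of letters and not a shown binding site.

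For the set as a whole, 9 of the 10 genes had a negative log2 fold change (Ko over Het), where 52.8% of all 19416 genes tested did, and the median log2 fold change was -1.78 against -0.05 over all genes tested. None of the 10 passed the test across all genes (limma, adjusted p under 0.05), a threshold that 0.814% of all genes tested passed. At an unadjusted p under 0.05 there were 4 (Aire, Cd80, Ubd and Hdc), where 13.6% of all genes tested lay. On the reads recovered from the values, edgeR called 0 of the 10 and DESeq2 called 3 as lower in the libraries labelled Ko (Ubd, Hdc and Cd80), with 0.386% and 5.76% of all genes called (0.263% and 3.85% as lower). The authors' deposited table gave an adjusted p under 0.05 for 2 (Ubd and Hdc, both lower in Ko), with 8.19% of its genes below that threshold and 5.16% below it and lower in Ko. Values of the libraries labelled Ko and Het did not overlap for 3 of the 10 genes, against 18.4% of all genes tested. In 2 of them, Cd80 and Ubd, the Ko side was lower (9.86% of all genes tested), and in Trpm1 it was higher (8.57%). All 10 genes passed the filter on low values, a mean of at least 10 normalized counts over the 6 libraries, but Cd86 did so through Het3 alone and Trpm1 through Ko2 alone. Both genes are included in the counts and the median above. Their signs and the lack of overlap of Trpm1 nevertheless carry no weight. Several of the genes also rose together in Het2 and Het3, so they are not separate observations.

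**Figure D1:**
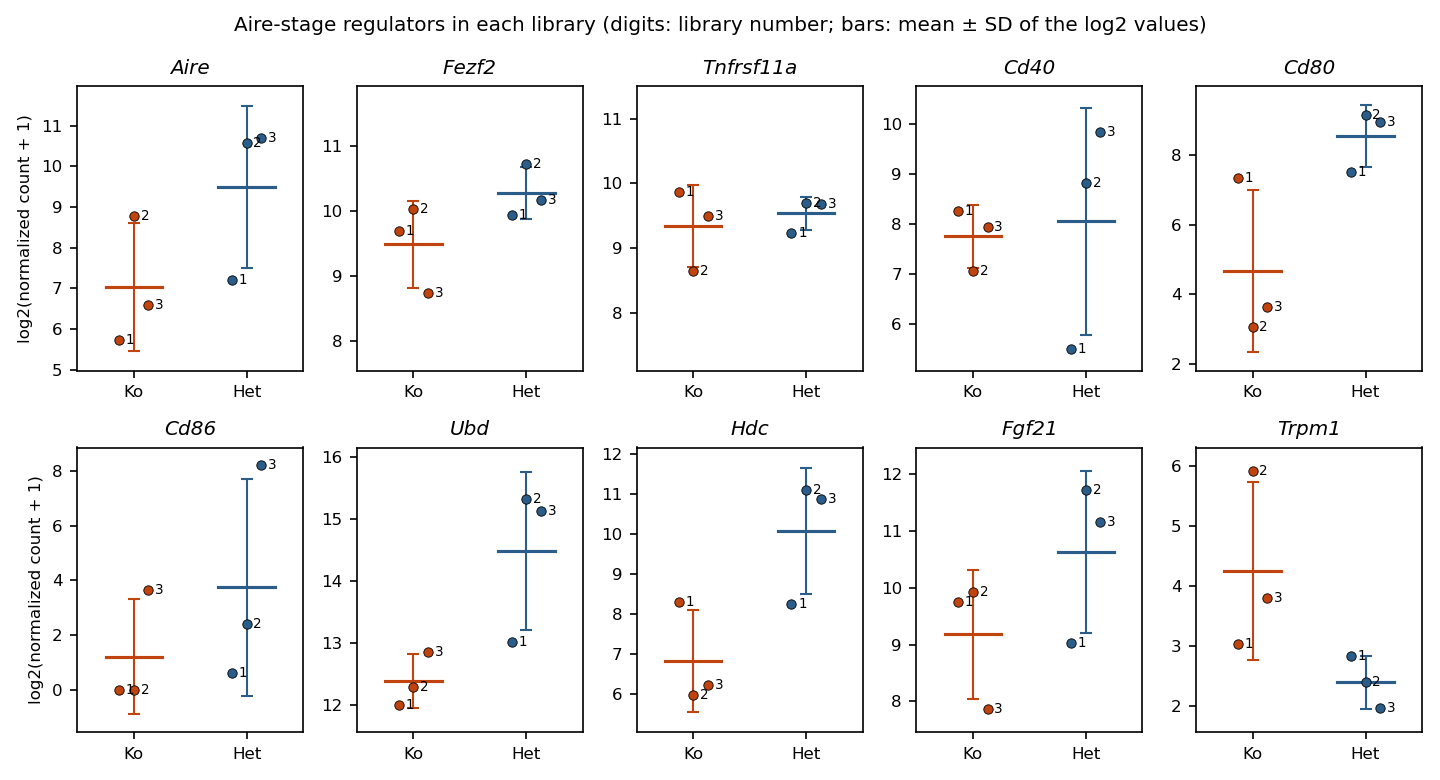
Level of each of the 10 genes, as log2 of the normalized count plus 1, in the 3 libraries labelled Ko (red) and the 3 labelled Het (blue); digits give the library number, the horizontal line the mean and the whiskers the SD (n = 3 each). Aire, Ubd, Hdc and Fgf21 are high in Het2 and Het3 (1536 and 1656 normalized counts for Aire), with Het1 close to the Ko libraries.

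The 2 transcription regulators that drive tissue antigen expression differed in how far they varied. Aire (ENSMUSG00000000731, chromosome 10), which releases stalled transcription at genes of peripheral tissues, had 52.5, 441 and 96.0 normalized counts in Ko1, Ko2 and Ko3, against 147, 1536 and 1656 in Het1, Het2 and Het3. Het2 and Het3 stood above every other library, and Het1 lay below Ko2, so the groups overlapped. For Aire the log2 fold change was -2.45 ± 0.99 (SE; 95% interval -4.66 to -0.24; limma adjusted p = 0.316). Leaving out single libraries moved it between -3.60 and -1.80. In the GENCODE M21 annotation Aire overlaps the gene Dnmt3l on the opposite strand; Dnmt3l had 3.09, 3.11 and 5.73 normalized counts in Ko1, Ko2 and Ko3 and 2.24, 88.0 and 176 in Het1, Het2 and Het3. Strandedness is not given in the sources used here, so reads of Aire and Dnmt3l in the shared stretch may not be told apart.

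Fezf2 (ENSMUSG00000021743, chromosome 14), a zinc finger factor that drives a further set of tissue antigens in mTEC, had 824, 1050.4 and 427 normalized counts in Ko1, Ko2 and Ko3, against 980, 1691 and 1159 in Het1, Het2 and Het3. Het1 lay inside the range of the libraries labelled Ko. Its log2 fold change was -0.79 ± 0.37 (SE; 95% interval -1.61 to 0.03; limma adjusted p = 0.385), and it lay between -1.07 and -0.42 without single libraries. Fezf2 thus varied over a range of 1.98 on the log2 scale across the 6 libraries, where Aire varied over 4.95.

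The receptors upstream of Aire were present in both groups. Tnfrsf11a (ENSMUSG00000026321, chromosome 1), which encodes RANK, had 935, 398 and 723 normalized counts in Ko1, Ko2 and Ko3, against 603, 825 and 821 in Het1, Het2 and Het3. The libraries labelled Het lay inside the range of those labelled Ko. Its log2 fold change was -0.20 ± 0.36 (SE; 95% interval -1.0 to 0.60; limma adjusted p = 0.862), and it was 0.15 without Ko2. Its range over the 6 libraries, 1.23 on the log2 scale, was the smallest of the 10 genes.

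Cd40 (ENSMUSG00000017652, chromosome 2), the receptor through which thymocytes bearing CD40 ligand signal to mTEC, had 308, 132 and 245 normalized counts in Ko1, Ko2 and Ko3, against 44.2, 449 and 918 in Het1, Het2 and Het3. Het1 was the lowest library of all 6 and Het3 the highest, so the Het group enclosed the Ko group. The log2 fold change was -0.30 ± 0.95 (SE; 95% interval -2.42 to 1.82; limma adjusted p = 0.928), and its sign turned without Het2 (0.08), Het3 (0.60) or Ko2 (0.05).

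The costimulatory ligands of the B7 family, which engage CD28 and CTLA-4 on T cells, were low in most libraries labelled Ko. Cd80 (ENSMUSG00000075122, chromosome 16) had 160.5, 7.25 and 11.5 normalized counts in Ko1, Ko2 and Ko3, against 183, 572 and 495 in Het1, Het2 and Het3. The groups did not overlap, but Ko1 and Het1 lay next to each other. For Cd80 the log2 fold change was -3.87 ± 1.10 (SE; 95% interval -6.32 to -1.43; limma adjusted p = 0.150), and the adjusted p was 0.0393 without Ko1. Counts in Ko2 and Ko3 rested on 7 and 8 reads.

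Cd86 (ENSMUSG00000022901, chromosome 16) was close to unread outside Het3. It had 0, 0 and 11.5 normalized counts in Ko1, Ko2 and Ko3, against 0.559, 4.26 and 291 in Het1, Het2 and Het3, which rest on 0, 0, 8, 1, 6 and 202 reads. Its log2 fold change of -2.53 ± 2.14 (SE; 95% interval -7.30 to 2.24; limma adjusted p = 0.667) was carried by Het3. Without Het3 the gene no longer passed the filter on low values. DESeq2 and the authors' deposited table gave Cd86 no adjusted p.

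Cd80, Cd86 and Cd40 are also genes of professional antigen-presenting cells, so markers of those cells were set beside them. The 9 dendritic cell markers summed to 242, 297 and 427 normalized counts in Ko1, Ko2 and Ko3 and to 305, 508 and 361 in Het1, Het2 and Het3. Zbtb46 made up the largest share of the sum in every library. Itgax was at most 4.30 in any library and Cd209a at 0 in all 6. Batf3 had 52.5, 1.04 and 0 in Ko1, Ko2 and Ko3 and 15.1, 48.3 and 98.1 in Het1, Het2 and Het3, and Ccr7 had 5.14, 4.14 and 81.6 in Ko1, Ko2 and Ko3 and 15.1, 102 and 30.3 in Het1, Het2 and Het3. Clec9a was at 36.1 in Het3 and at most 5.18 in the other libraries. The 7 B cell markers summed to 4703 to 5808 in the libraries labelled Ko and 2095 to 3085 in those labelled Het, and most of it was Cd79b. Cd79a had 2.06, 1.04 and 1.43 in Ko1, Ko2 and Ko3 and 0.559, 108 and 10.1 in Het1, Het2 and Het3. It was high in Het2 alone, while Cd80 and Aire were high in both Het2 and Het3. Other B cell markers had other patterns. Cd22 had 0, 1.04 and 75.9 in Ko1, Ko2 and Ko3 and 0.559, 12.1 and 2.89 in Het1, Het2 and Het3. Pax5 had 11.3, 5.18 and 54.4 in Ko1, Ko2 and Ko3 and 33.6, 65.3 and 30.3 in Het1, Het2 and Het3. Blk had 20.6, 19.7 and 10.0 in Ko1, Ko2 and Ko3 and 7.27, 31.2 and 7.21 in Het1, Het2 and Het3. Ms4a1 was at most 4.33 in any library. The 8 macrophage and monocyte markers summed to 1220, 3225 and 2283 in Ko1, Ko2 and Ko3 and to 54024, 5206 and 9399 in Het1, Het2 and Het3, of which Lyz2 made up 497, 2900 and 1130 in Ko1, Ko2 and Ko3 and 53300, 3666 and 8729 in Het1, Het2 and Het3. Adgre1, which encodes the macrophage antigen F4/80, had 4.12, 2.07 and 0 in Ko1, Ko2 and Ko3 and 7.27, 193 and 50.5 in Het1, Het2 and Het3. Lyz2 and Adgre1 were the 2 of the 8 macrophage markers whose groups did not overlap. Both were lower in Ko, a pattern found in 9.86% of all genes tested. Adgre1 passed the filter on low values only through the libraries labelled Het, so its lack of overlap carries no weight. Among the libraries labelled Het, Het1 had the highest Lyz2 and the lowest Adgre1. The complement gene C1qb had 258, 20.7 and 276 in Ko1, Ko2 and Ko3 and 139, 59.6 and 104 in Het1, Het2 and Het3, and C1qc had 207, 20.7 and 143 in Ko1, Ko2 and Ko3 and 130, 71.7 and 118 in Het1, Het2 and Het3. C1qa, Csf1r, Mrc1 and Cd68 also had overlapping groups. The part of such cells in the values of Cd80, Cd86 and Cd40 was not tested. In sorted bulk samples, fewer cells of a type and less RNA per cell cannot be told apart, for these genes and for all others of the set.

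Ubd (ENSMUSG00000035186, chromosome 17), which encodes the ubiquitin-like modifier FAT10 that targets proteins to the proteasome, was by far the most abundant of the 10 genes. It had 4090, 4998 and 7394 normalized counts in Ko1, Ko2 and Ko3, against 8249, 40719 and 35545 in Het1, Het2 and Het3. The groups did not overlap, although Het1 lay nearer to Ko3 than to Het2 or Het3. The log2 fold change was -2.10 ± 0.51 (SE; 95% interval -3.23 to -0.97; limma adjusted p = 0.101). Without Het1 it was -2.84 with an adjusted p of 0.0102, and over all alternatives the adjusted p ran from 0.0102 to 0.329. The authors' deposited table gave Ubd a log2 fold change of -2.36 with an adjusted p of 0.00146.

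Hdc (ENSMUSG00000027360, chromosome 2), the enzyme that makes histamine from histidine, had 312, 61.1 and 73.1 normalized counts in Ko1, Ko2 and Ko3, against 303, 2175 and 1864 in Het1, Het2 and Het3. Het1 and Ko1 were level, while Het2 and Het3 were far above the other libraries. Its log2 fold change was -3.25 ± 0.82 (SE; 95% interval -5.07 to -1.43; limma adjusted p = 0.112). Without Het1 it was -4.16 with an adjusted p of 0.049998, just under the threshold. The authors' deposited table gave Hdc a log2 fold change of -3.28 with an adjusted p of 0.00292.

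Hdc is also a gene of mast cells and basophils. The 7 markers of those cells summed to 1878, 2425 and 2600 normalized counts in Ko1, Ko2 and Ko3 and to 3174, 3355 and 3396 in Het1, Het2 and Het3, and most of the sum was Kit. The receptor gene Fcer1a was at most 1.44 in any library. Cpa3, a mast cell protease gene, had 0, 0 and 1.43 in Ko1, Ko2 and Ko3 and 91.7, 0 and 113 in Het1, Het2 and Het3. Mcpt8, a basophil protease gene, was at 0 in all 3 libraries labelled Ko and had 0, 0.710 and 231 in Het1, Het2 and Het3. Cma1, a mast cell chymase gene, had 233, 0 and 0 in Ko1, Ko2 and Ko3 and 1.68, 57.5 and 85.1 in Het1, Het2 and Het3, and the tryptase gene Tpsb2 had 16.3 in Het2 and at most 2.86 in the other libraries. Het2 and Het3, the libraries with the highest Hdc, both held reads of Cma1. Tpsb2 was highest in Het2, and Cpa3 and Mcpt8 were highest in Het3. Ko1 held the highest Cma1 and Het1 also held Cpa3, while their Hdc was 312 and 303. The part of such cells in the Hdc values was not tested.

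Fgf21 (ENSMUSG00000030827, chromosome 7), a metabolic hormone gene best known from liver, had 861, 970 and 232 normalized counts in Ko1, Ko2 and Ko3, against 520, 3380 and 2303 in Het1, Het2 and Het3. Het1 lay inside the range of the libraries labelled Ko. The log2 fold change was -1.46 ± 0.71 (SE; 95% interval -3.03 to 0.11; limma adjusted p = 0.408), and it was -2.27 without Het1.

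Trpm1 (ENSMUSG00000030523, chromosome 7), a cation channel gene of melanocytes and retinal bipolar cells, was the one gene with a positive fold change, and it was barely read. It had 7.2, 59.0 and 12.9 normalized counts in Ko1, Ko2 and Ko3, against 6.15, 4.26 and 2.89 in Het1, Het2 and Het3. These values rest on 7, 57 and 9 reads in the libraries labelled Ko and 11, 6 and 2 in those labelled Het. The groups did not overlap, but Ko1 and Het1 lay next to each other and Ko2 carried the difference. The log2 fold change was 1.85 ± 1.38 (SE; 95% interval -1.22 to 4.92; limma adjusted p = 0.614), so a difference was not detectable at this depth.

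**Figure D2:**
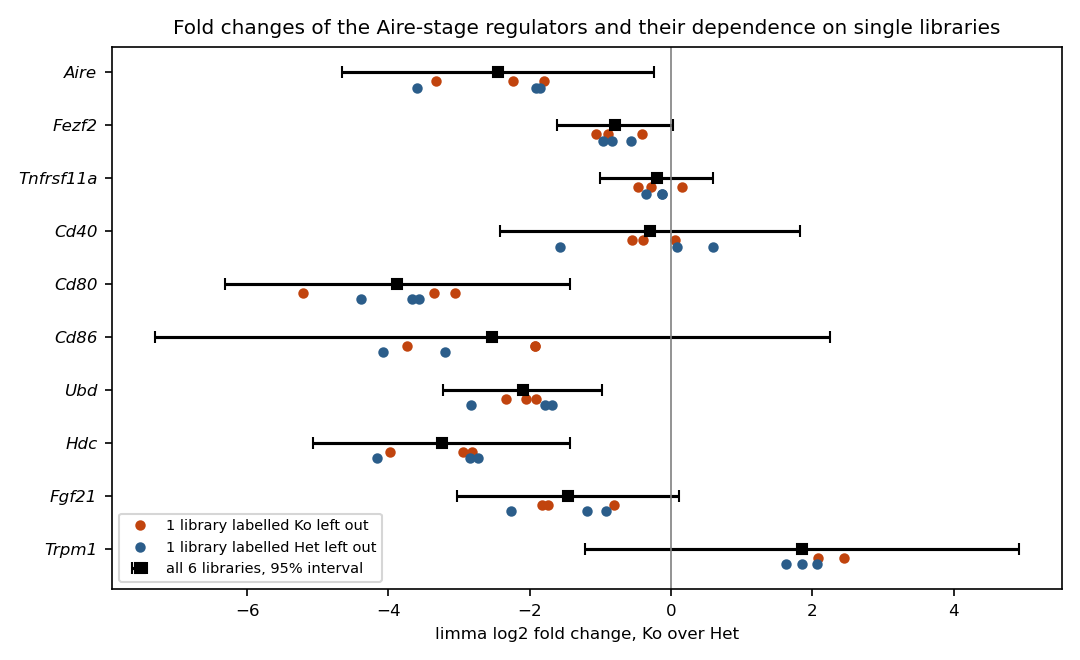
Limma log2 fold change (Ko over Het) of each gene with its 95% interval from all 6 libraries (black), and the fold changes with 1 library labelled Ko (red) or Het (blue) left out. Aire, Fezf2, Cd80, Cd86, Ubd, Hdc and Fgf21 stay below 0 in every such fit they entered, Trpm1 stays above 0 in every fit it entered, and Cd40 and Tnfrsf11a lie on both sides.

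Across the libraries the genes varied in a shared way that did not follow the labels alone. Het2 was the highest library for 5 of the 10 genes and Het3 for 3, and no gene was highest in Het1. The mean log2 level of the 10 genes was 7.40, 7.16 and 7.08 in Ko1, Ko2 and Ko3, against 7.32, 9.19 and 9.67 in Het1, Het2 and Het3. Het1 therefore lay inside the range of the libraries labelled Ko. Summed normalized counts of the 10 genes, most of them from Ubd, were 7550 in Ko1, 8117 in Ko2 and 9226 in Ko3, against 11036, 51355 and 45055 in Het1, Het2 and Het3. They made up 0.0437% to 0.0526% of all normalized counts in the libraries labelled Ko and 0.0628%, 0.287% and 0.251% in Het1, Het2 and Het3.

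Het1 was at or inside the range of the libraries labelled Ko, or below it, for 8 of the 10 genes; the exceptions were Cd80 and Ubd. The mean of Het2 and Het3 was 15.5-fold the level of Het1 for Cd40, 10.9-fold for Aire, 6.66-fold for Hdc, 5.46-fold for Fgf21 and 4.62-fold for Ubd, but only 1.45-fold for Fezf2 and 1.36-fold for Tnfrsf11a. Without Het1, limma called 2 of the 10 genes (Ubd and Hdc) and the median log2 fold change was -2.55. Het1 was also the library with the most reads and, among those labelled Het, the highest summed tuft cell markers. It held the highest Lyz2 of all 6, while among those labelled Het it had the lowest Adgre1 and the highest C1qb and C1qc. The part of these in its low Aire-stage values was not tested.

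**Figure D3:**
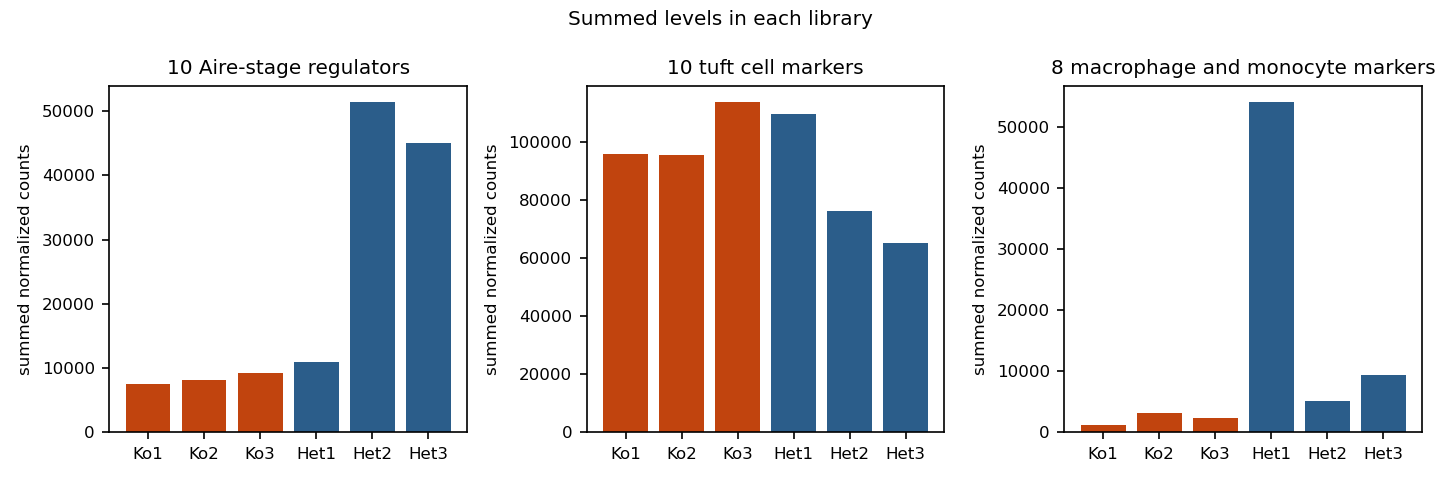
Summed normalized counts of the 10 Aire-stage genes (left), the 10 tuft cell markers (middle) and the 8 macrophage and monocyte markers (right) in each library, with those labelled Ko in red and those labelled Het in blue. The Aire-stage sum is 51355 in Het2 and 45055 in Het3 and at most 11036 elsewhere, while these 2 libraries have the lowest tuft cell sums, 76160 and 65320. The macrophage and monocyte sum of Het1, 54024, is almost all Lyz2 (53300).

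Levels of different genes were compared per kilobase of exonic sequence, using exon lengths from GENCODE M21. In the libraries labelled Ko the order was Ubd (5901 ± 1834 normalized counts per kilobase, SD, n = 3), Fgf21 (723 ± 419), Fezf2 (252 ± 104), Tnfrsf11a (115 ± 45.2), Cd40 (67.0 ± 26.2), Aire (51.4 ± 55.7), Hdc (23.3 ± 22.1), Cd80 (16.1 ± 23.6), Trpm1 (1.79 ± 1.93) and Cd86 (1.04 ± 1.81). In the libraries labelled Het it was Ubd (30259 ± 18739), Fgf21 (2174 ± 1519), Fezf2 (419 ± 121), Aire (291 ± 219), Hdc (227 ± 157), Cd40 (138 ± 128), Tnfrsf11a (125 ± 21.2), Cd80 (113 ± 55.5), Cd86 (27.0 ± 45.6) and Trpm1 (0.301 ± 0.111). Only Ubd stood clear of its neighbour in the order, and in both groups the ranges of all later neighbours overlapped.

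The genes whose pattern over the 6 libraries was most like that of Aire, by Pearson's r of log2 values among 13834 genes with a mean of at least 50, were H2-DMb2 (r = 0.992), Emc6 (0.992), Smap1 (0.985) and Ebag9 (0.985). H2-DMb2, a chain of the class II peptide editor H2-DM, had 619, 1216 and 645 normalized counts in Ko1, Ko2 and Ko3, against 879, 1826 and 1977 in Het1, Het2 and Het3. Most like Ubd were Gm16160 (0.994), Mat2b (0.992), Serpinb6c (0.989) and Fam216b (0.988). Serpinb6c had 0, 0 and 1.43 normalized counts in Ko1, Ko2 and Ko3, against 1.12, 242 and 92.3 in Het1, Het2 and Het3. In all, 70 genes had an r above 0.95 with Aire and 66 with Ubd. Within the set, Aire correlated most with Ubd (0.861) and Fgf21 (0.819), and least with Trpm1 (-0.249) and Tnfrsf11a (-0.048).

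The pathway that leads from RANK and CD40 to Aire was described by 26 genes of ligands, adaptors, kinases and NF-kB subunits, 24 of which were tested. Fold changes were negative for 18 of the 24 and positive for 6, and their median on the log2 scale was -0.37, where 52.8% of all genes tested were negative. None passed the test with limma or edgeR, and 6 had an unadjusted limma p under 0.05 (13.6% of all genes tested). DESeq2 called 4 (3.85% of all genes as lower) and the authors' deposited table gave 5 (5.16% of its genes as lower), all lower in the libraries labelled Ko. In 7 of the 24 the groups did not overlap and the libraries labelled Ko were lower, a pattern found in 9.86% of all genes tested. One of the 7, Tnfsf11, passed the filter on low values through Het2 alone, and so lends that count no weight. Lta, whose groups overlapped, passed it through Het3 alone.

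The ligand of RANK was close to unread outside Het2, and its decoy receptor was lower in every library labelled Ko than in any labelled Het. Tnfsf11, the gene of RANK ligand, had no read in the libraries labelled Ko, while Het1, Het2 and Het3 had 5, 197 and 1. The difference therefore rests on Het2, and in Het3 on a single read. DESeq2 and the authors' deposited table gave Tnfsf11 no adjusted p. Tnfrsf11b, which encodes the decoy receptor osteoprotegerin, had 84.4, 18.6 and 67.3 normalized counts in Ko1, Ko2 and Ko3, against 892, 343 and 199 in Het1, Het2 and Het3. This gave -3.02 ± 0.78 as the log2 fold change (SE; limma adjusted p = 0.117; DESeq2 adjusted p = 9.96e-04), and here Het1 was the highest library. Cd40lg was at 0 in all 6 libraries.

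NF-kB subunits and their inhibitor formed the rest of the genes with no overlap. Nfkbia, the gene of the inhibitor IkB-alpha and itself an NF-kB target, had 19672, 15679 and 18782 normalized counts in Ko1, Ko2 and Ko3, against 27349, 27865 and 26655 in Het1, Het2 and Het3. Its log2 fold change of -0.60 ± 0.12 (SE; limma adjusted p = 0.0504) missed the threshold narrowly, and over the alternatives the adjusted p ran from 0.00422 to 0.203. The 3 libraries labelled Het were close together, Het1 included.

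Nfkb2, the subunit gene of the alternative pathway that RANK uses, had 991, 629 and 629 normalized counts in Ko1, Ko2 and Ko3, against 1494, 1271 and 1535 in Het1, Het2 and Het3 (log2 fold change -0.96 ± 0.27, SE; limma adjusted p = 0.146; DESeq2 adjusted p = 0.0396). Nfkb1, the subunit gene of the classical pathway, had 1421, 1458 and 1308 in Ko1, Ko2 and Ko3, against 2491, 1983 and 2395 in Het1, Het2 and Het3 (log2 fold change -0.71 ± 0.20, SE; limma adjusted p = 0.146; DESeq2 adjusted p = 0.0319). Relb, the partner of the Nfkb2 product, had 598, 427 and 468 in Ko1, Ko2 and Ko3, against 802, 922 and 828 in Het1, Het2 and Het3 (log2 fold change -0.78 ± 0.28, SE; limma adjusted p = 0.257). Rel had 803, 691 and 847 in Ko1, Ko2 and Ko3, against 1351, 1215 and 985 in Het1, Het2 and Het3 (log2 fold change -0.59 ± 0.25, SE; limma adjusted p = 0.334). For these subunits Het1 lay with Het2 and Het3 rather than with the libraries labelled Ko, unlike for Aire, Hdc and Cd40. The subunit gene Rela (log2 fold change 0.07, 95% interval -0.63 to 0.78) and the kinase genes Chuk (0.32, -0.17 to 0.80) and Map3k14 (0.49, -0.23 to 1.21) had overlapping groups.

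**Figure D4:**
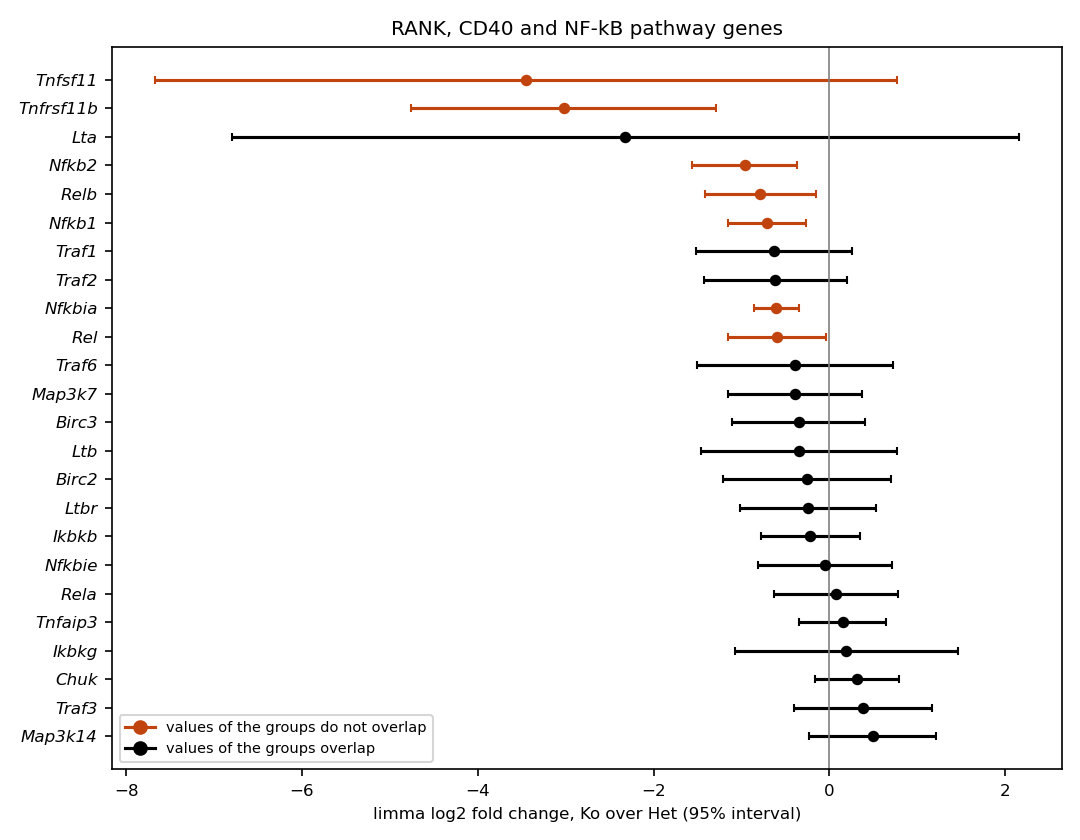
Limma log2 fold change (Ko over Het) with its 95% interval for the 24 tested genes of the RANK, CD40 and NF-kB list; red marks the 7 genes whose values did not overlap between the groups. All 7 lie below 0, from -3.45 for Tnfsf11 to -0.59 for Rel.

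Other ligands that mTEC or antigen-presenting cells use to instruct T cells were tested as a list of 12, of which 11 passed the filter. Fold changes were negative for 7 of the 11, where 52.8% of all genes tested were negative. Their median on the log2 scale was -0.81, against -0.05 over all genes tested. Limma, edgeR, DESeq2 and the authors' deposited table called 0, where they called 0.814%, 0.386%, 5.76% and 8.19% of all their genes. An unadjusted limma p under 0.05 was found for 2 of the 11, where 13.6% of all genes tested lay. Cd70, the ligand of CD27, had 70.0, 48.7 and 0 normalized counts in Ko1, Ko2 and Ko3, against 74.9, 337 and 607 in Het1, Het2 and Het3 (log2 fold change -4.04 ± 1.56, SE; limma adjusted p = 0.296). Icosl, a further B7 family gene, had 189, 171 and 77.3 in Ko1, Ko2 and Ko3, against 295, 266 and 472 in Het1, Het2 and Het3 (log2 fold change -1.29 ± 0.52, SE; limma adjusted p = 0.318). Pdcd1lg2, which encodes PD-L2, had 211, 128 and 208 in Ko1, Ko2 and Ko3, against 286, 310.3 and 345 in Het1, Het2 and Het3 (log2 fold change -0.81 ± 0.44, SE; limma adjusted p = 0.463). Tnfsf9, which encodes 4-1BB ligand, had 88.5, 171 and 110.3 in Ko1, Ko2 and Ko3, against 241, 306 and 141 in Het1, Het2 and Het3 (log2 fold change -0.88 ± 0.56, SE; limma adjusted p = 0.545).

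Genes of proteins that act with Aire or Fezf2 on chromatin and transcription, 18 in all and all tested, did not pass the test. Fold changes were positive for 15, where 9159 of all 19416 genes tested were positive. Their median on the log2 scale was 0.30, against -0.05 over all genes tested. Limma, edgeR and DESeq2 called 0, where they called 0.814%, 0.386% and 5.76% of all genes tested. The authors' deposited table gave 1, Crebbp, as higher in Ko, with 8.19% of its genes called in either direction. An unadjusted limma p under 0.05 was found for 3 of the 18, a share near the 13.6% of all genes tested. Crebbp, the gene of the coactivator CBP, had 1837, 2243 and 2263 normalized counts in Ko1, Ko2 and Ko3, against 1510.0, 1402 and 1159 in Het1, Het2 and Het3 (log2 fold change 0.64 ± 0.21, SE; limma adjusted p = 0.214). Hipk2, a kinase that phosphorylates Aire, had 275, 399 and 199 in Ko1, Ko2 and Ko3, against 165, 46.1 and 105 in Het1, Het2 and Het3 (log2 fold change 1.58 ± 0.62, SE; limma adjusted p = 0.303). Top1, the gene of topoisomerase I, had 2502, 2551 and 2954 in Ko1, Ko2 and Ko3, against 2048, 1720.3 and 2143 in Het1, Het2 and Het3 (log2 fold change 0.44 ± 0.19, SE; limma adjusted p = 0.341). Ccnt1, a subunit of the elongation factor P-TEFb, had 1530, 1300.1 and 1084 in Ko1, Ko2 and Ko3, against 1016, 634 and 1151 in Het1, Het2 and Het3 (log2 fold change 0.51 ± 0.29, SE; limma adjusted p = 0.487).

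Tissue antigens known to depend on Aire in mTEC were sparse in these libraries, and only 5 of 9 passed the filter on low values. The 5 had a median log2 fold change of -1.33, with 4 negative. Limma and edgeR called 0, and 2 had an unadjusted limma p under 0.05 (13.6% of all genes tested). DESeq2 and the authors' deposited table called 1, Mucl2, as lower, with 3.85% and 5.16% of all their genes called as lower. DESeq2 gave no adjusted p for Ins2, Mup4 and Muc6, and the authors' deposited table none for Ins2 and Mup4. Ins2 and Muc6 passed the filter only through the libraries labelled Het and Mup4 only through Ko3, so these counts and the median carry no weight for the list. Ins2, the insulin gene, had 1.03, 5.18 and 0 normalized counts in Ko1, Ko2 and Ko3, against 163, 126 and 5616 in Het1, Het2 and Het3 (log2 fold change -7.72 ± 1.53, SE; limma adjusted p = 0.0537). Mucl2, the salivary protein gene long called Spt1, had 0, 15.5 and 22.9 in Ko1, Ko2 and Ko3, against 594, 41.9 and 361 in Het1, Het2 and Het3 (log2 fold change -4.84 ± 1.47, SE; limma adjusted p = 0.177; DESeq2 adjusted p = 6.97e-04). For these 2 genes Het1 was not low: it held the highest Mucl2, and its Ins2 was above that of Het2. Mup4 was read mainly in Ko3, with 138 normalized counts there and at most 10.6 elsewhere, and Muc6 had 12.3, 5.18 and 2.86 in Ko1, Ko2 and Ko3, against 36.9, 7.81 and 8.66 in Het1, Het2 and Het3. Obp1a and Mup1 were at 0 in every library. Ins2 and the Mup genes have near-identical relatives, so their separate counts are uncertain.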

How the data were processed

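The authors deposited a signal per gene and library, read counts scaled by a size factor, referred to as normalized counts. STAR 2.7.9a, GRCm39 and DESeq2 are named in the submitters' processing notes; the sources used here do not give the read counter, the annotation, strandedness or filters. For each gene, the authors' deposited comparison gives, per the file headers, the log2 fold change and its error, the Wald statistic (a score), the p-value and its adjusted form; blank entries were kept blank.

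Of 55471 identifiers, 55144 were given a symbol from a gene name table; Spt1 was found through RefSeq synonyms. Each value divided by its library's step gave whole reads, within 0.01, for 100% of values above 0. Genes with a mean of at least 10 were compared by limma 3.58.1 (R 4.3.3) after adding 1 and taking log2 (mean-variance trend, two-sided, genotype as the only term, Benjamini-Hochberg over 19416 genes, threshold 0.05). For low genes, log2 fold changes on this scale can be smaller or larger in size than those from the recovered reads. Cd86 had -2.53 with limma and -4.72 with DESeq2, while Cd80 had -3.87 with limma and -2.79 with DESeq2. The smallest p that exact permutation of 3 against 3 libraries allows is 0.10. Alternatives were other pseudocounts, filters and scalings, robust eBayes, edgeR 4.0.16 and DESeq2 1.42.0 on the recovered reads, a block by column number, and leaving out each library. The scripts were tested on simulated data. In the least deep libraries, Ko3 and Het3, 3 reads correspond to 4.30 and 4.33 normalized counts.

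The members, gene lists and tests were chosen with earlier results of these data known. Named beyond the 10 genes were, for each list, up to 4 tested genes with the smallest p, and the 4 genes most like Aire and Ubd; Tnfsf11, Relb, Rel, Lta, Rela, Chuk, Map3k14 and single markers were chosen after their values were seen. Coordinates and promoters are GRCm38.p6 only.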

Additional observations from a re-analysis of the deposited data

How the results depend on the processing

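All genes called numbered 158 with limma, 239 with robust eBayes, 75 with edgeR, 1118 with DESeq2 and 87 with a replicate block by column number, and 0 (without Het3) to 116 (without Ko1) without single libraries. Aire-stage genes called numbered 0 with limma, 3 with DESeq2, 1 with the block (Ubd) and 0 to 2 without single libraries. The RANK, CD40 and NF-kB list had 1 call with a pseudocount of 5, with no filter and with robust eBayes, 4 with DESeq2, and 0 without any single library. The tissue antigen list had 1 call with no filter, with robust eBayes and with DESeq2, and 0 without any single library. The lists of other ligands and of Aire partners had 0 calls in every setting. The log2 fold change of Cd40 turned to 0.08 without Het2, 0.60 without Het3 and 0.05 without Ko2 (range -1.58 to 0.60), and that of Tnfrsf11a to 0.15 without Ko2 (range -0.47 to 0.15); the cause was not tested. The remaining Aire-stage genes kept their direction in every setting that gave a value. Column numbers gave no sign of pairing: deviations of same-numbered libraries correlated at 0.025, 0.021 and -0.015, and those of other numbers at -0.046 to 0.024. With all values close to 0, the check cannot show that pairing is absent. The numbers in the sample titles run in neighbouring Cre-negative and Cre-positive samples, but the columns cannot be tied to single samples, so a pairing by title was not tested. Depth limits Cd86 and Trpm1 most, with 8 reads over the libraries labelled Ko for Cd86 and 19 over those labelled Het for Trpm1.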
